A study of Homo sapiens with 38 samples.

Results

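The 40 genes described here import glucose, break it down to pyruvate and lactate, or respond to low oxygen. They were picked by gene symbol as glycolytic enzymes, transporters, members of the hypoxia-inducible factor (HIF) system and HIF target genes. All 40 were among the 58219 genes of the deposited table, and all 40 passed the filter on low values used for testing. Poly(A) RNA of H9, an established human embryonic stem cell line of wild-type genotype, had been sequenced to follow its conversion into neural progenitor cells whose position along the head-to-tail axis was set by WNT signalling. The 38 libraries form 19 groups of 2. In each of day 4 (D4) and day 8 (D8) of neural induction there were 9 groups. These were CT4.0RA, which combined CT at 4.0 µM with RA (retinoic acid) at 1.0 µM; IWP2 at 2 µM, an inhibitor of WNT secretion; and CT, a WNT activator that the labels do not spell out, at 0.0 (untreated), 0.4, 0.8, 1.0, 2.0, 3.0 and 4.0 µM. The last group was undifferentiated cells at day 0 (D0). All 19 groups are labelled wild type. The 2 libraries of a group are called biological replicates, but whether they came from separate inductions is not stated, so every p-value measures the spread between these libraries, which may be partly technical. Neither oxygen tension nor the glucose content of the medium is stated in the labels.

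As background, glycolysis splits glucose into pyruvate, and lactate dehydrogenase then turns pyruvate into lactate, which leaves the cell through monocarboxylate transporters. In low oxygen the HIF-1α protein, encoded by HIF1A, escapes hydroxylation by the EGLN enzymes, pairs with ARNT and switches on many glycolytic genes along with genes for angiogenesis, collagen processing and mitophagy. Primed human embryonic stem cells are known for high glycolysis and lactate output even in ambient oxygen, and neural differentiation is known to shift cells towards oxidative metabolism. HIF-1α is regulated mainly through protein stability, which an RNA measurement does not see.

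Values are TPM, the share of transcripts a gene takes in its library, corrected for transcript length, so levels can be compared between genes. A difference is in log2(TPM + 1), the later or treated group minus the group it is set against. A gene is called higher or lower at a Benjamini-Hochberg adjusted p under 0.05 over 28221 genes with a log2 difference of at least 1, by limma fitted to all 38 libraries. Genes said to rise or fall passed this rule. Remarks that the groups of a called gene did not overlap describe its libraries and add no support to the call. The share of all genes with separated groups was not computed. Of the 38 libraries, 33 correlated best with their own replicate, and the other 5 were the D4 CT3.0 pair, the D8 untreated pair and 1 D8 CT4.0 library. Ribosomal protein genes took between 17.1% and 39.1% of all TPM, the highest share being in D8 CT4.0RA, so a TPM of any other gene also depends on that share. In bulk RNA, fewer cells of a type and less RNA per cell cannot be told apart.

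HIF complexes bind short DNA words with the core ACGTG or GCGTG, so the promoter windows of the genes were searched for them. The windows, from RefSeq on build GRCh38.p14, ran from 250 bases before to 50 bases after each gene's start. Of the 40 genes 35 had a window, and SLC2A3, SLC16A1, NDRG1, VEGFA and BNIP3L are named only. The 4 windows printed here belong to LDHA, PGK1 and ALDOC, which fell at induction and rose under CT4.0, and to LDHB, the sister gene of LDHA, which passed in neither comparison. Capitals mark ACGTG or GCGTG on either strand (CACGT or CACGC when the printed strand carries the complement), including CACGTG, which holds ACGTG on both strands and so counts once on each. The LDHA window is chr11:18394313-18394612 (plus strand), with 6 matches; the PGK1 window is chrX:78103998-78104297 (plus strand), with 4. The ALDOC window is chr17:28576846-28577145 (minus strand), with 5 matches, and the LDHB window is chr12:21657793-21658092 (minus strand), with 1.
LDHA: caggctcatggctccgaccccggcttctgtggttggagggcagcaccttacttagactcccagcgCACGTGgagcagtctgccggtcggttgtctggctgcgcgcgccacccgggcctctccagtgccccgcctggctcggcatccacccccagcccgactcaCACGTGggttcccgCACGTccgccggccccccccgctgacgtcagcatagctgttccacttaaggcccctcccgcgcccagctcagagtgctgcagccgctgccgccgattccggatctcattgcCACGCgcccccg
PGK1: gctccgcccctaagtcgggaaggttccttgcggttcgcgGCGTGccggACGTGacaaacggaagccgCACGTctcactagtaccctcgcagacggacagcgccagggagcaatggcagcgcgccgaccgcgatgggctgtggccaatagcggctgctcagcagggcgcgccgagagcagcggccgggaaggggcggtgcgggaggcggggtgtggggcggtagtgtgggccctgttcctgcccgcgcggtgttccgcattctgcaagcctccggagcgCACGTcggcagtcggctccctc
ALDOC: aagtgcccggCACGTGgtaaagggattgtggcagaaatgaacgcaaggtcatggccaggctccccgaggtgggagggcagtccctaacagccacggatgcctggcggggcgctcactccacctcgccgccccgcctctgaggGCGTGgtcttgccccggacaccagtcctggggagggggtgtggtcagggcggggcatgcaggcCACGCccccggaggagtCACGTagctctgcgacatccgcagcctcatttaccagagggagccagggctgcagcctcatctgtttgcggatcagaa
LDHB: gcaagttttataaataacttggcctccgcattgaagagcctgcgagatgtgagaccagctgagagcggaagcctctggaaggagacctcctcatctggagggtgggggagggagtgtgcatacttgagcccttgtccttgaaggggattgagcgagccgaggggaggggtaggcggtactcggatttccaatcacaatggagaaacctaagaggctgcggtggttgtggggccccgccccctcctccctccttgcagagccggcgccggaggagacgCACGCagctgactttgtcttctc

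ACGTG was in 14 of the 35 windows (40%), against 21.4% of all 35116 RefSeq promoter windows of the same length. GCGTG was in 17 windows (48.6%), against 36.5% of all windows, and either word was in 25 (71.4%), against 48.4%. CACGTG, which overlaps ACGTG, was in 5 windows (14.3%), against 7.3% of all windows. The other 10 windows held neither word, and they include those of SLC16A3, P4HA2, PDK1 and TPI1, which also rose under CT4.0, along with those of HK1, PFKM, PFKP, PGAM1, EGLN3 and MXI1. The printed windows were picked with their matches known. These are letter matches in a short window and not measured binding sites. Some of the genes were picked as HIF targets, so these shares cannot test whether HIF words are enriched in the pathway. The set of all windows was neither limited to the genes tested here nor matched for base content, and both words contain CG. Whether the higher shares go beyond these differences was not tested.

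**Figure D1:**
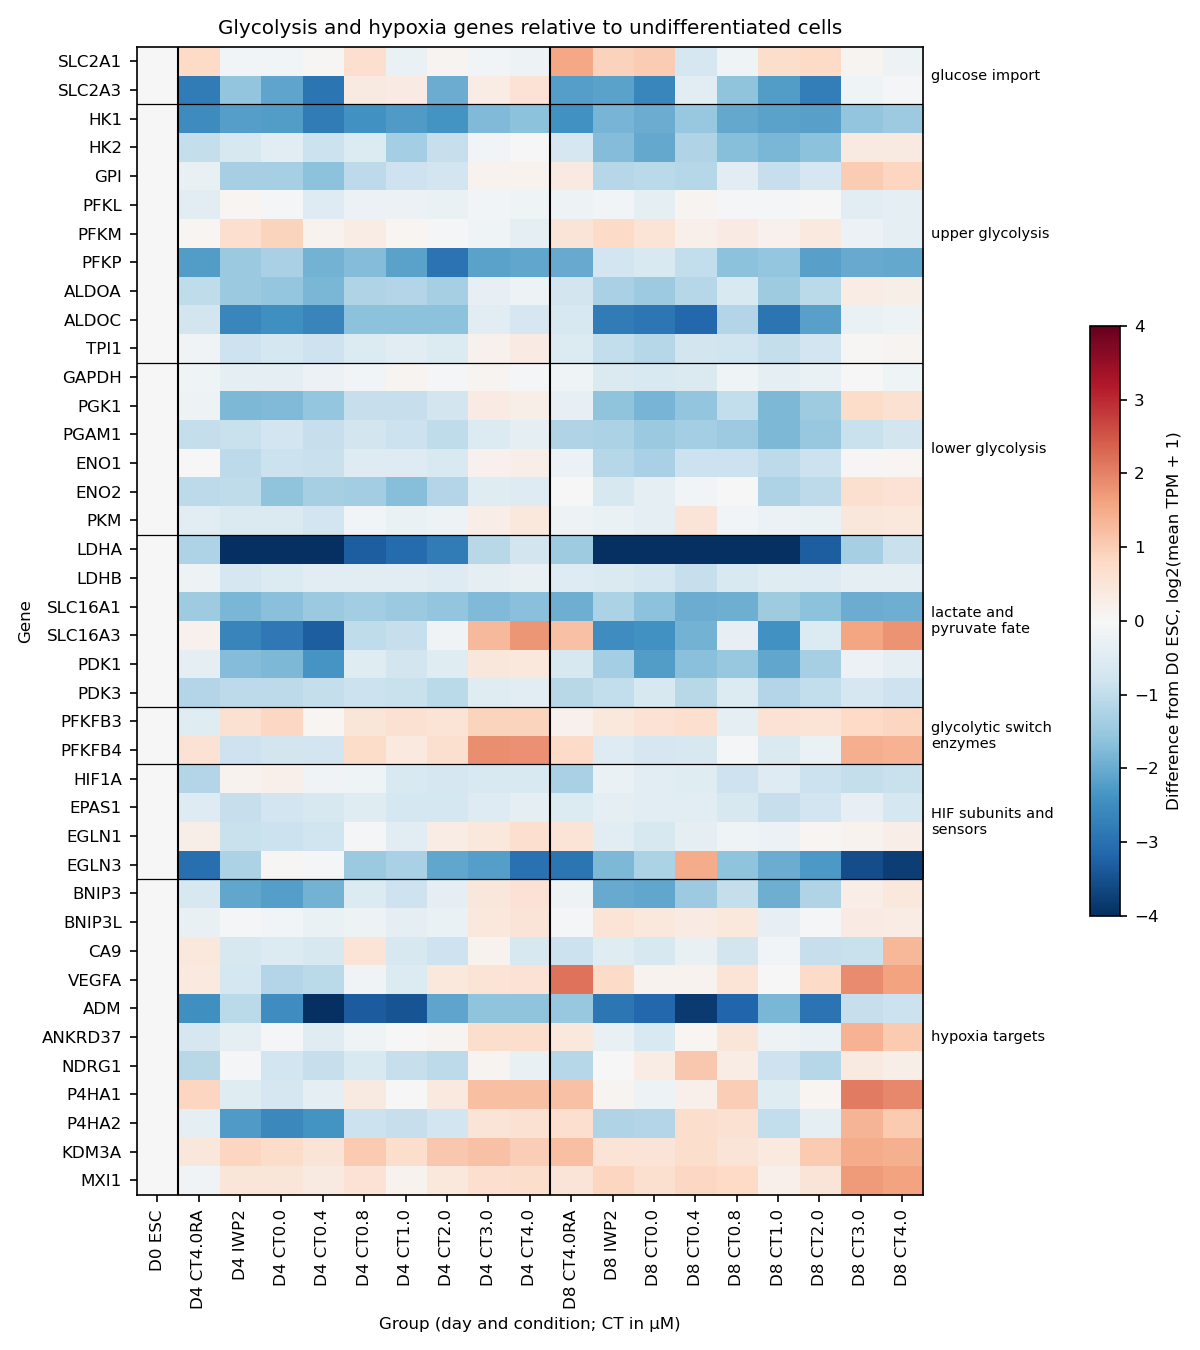
Heat map of the 40 genes (rows, grouped by role) in the 19 groups (columns), coloured by the difference from D0 in log2 of the mean TPM + 1, with the colour scale stopping at 4 in either direction. Rows such as LDHA, ALDOC and SLC16A3 are low in the untreated, IWP2 and CT0.4 columns and return towards or above the D0 level in the CT3.0 and CT4.0 columns of both days, while HK1, SLC16A1 and PFKP stay below D0 in every induced column.

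Neural induction without CT lowered much of the pathway. In D4 untreated cells against D0 cells, 17 of the 40 genes fell and 0 rose, when 9.24% of all genes tested fell and 7.51% rose. The median log2 difference of the 40 was -0.76, against 0.05 over all genes tested. By role, 1 of 2 glucose importers, 5 of 9 upper glycolysis enzymes, 2 of 6 lower glycolysis enzymes, 5 of 6 genes of lactate and pyruvate fate and 4 of 11 hypoxia targets fell. None of the 2 glycolytic switch enzymes or the 4 HIF subunits and sensors passed.

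LDHA, the lactate dehydrogenase subunit that favours lactate production, showed the largest difference of the 40. It stood at 34.5 and 35.9 TPM in D4 untreated libraries, against 892 and 659 TPM in D0 libraries, a log2 difference of -4.41, SE 0.21, limma adjusted p = 1.51e-13. SLC16A3 (MCT4), the exporter of lactate in glycolytic cells, was at 3.46 and 4.04 TPM, against 43.4 and 23.1 TPM at D0 (log2 -2.79, SE 0.34, limma adjusted p = 5.55e-07). For both genes every D4 library lay far below both D0 libraries. SLC16A1 (MCT1), a widely used lactate and pyruvate carrier, was at 166 and 163 TPM, against 547 and 502 TPM at D0 (log2 -1.67, SE 0.14, limma adjusted p = 1.36e-09). PDK1 and PDK3, kinases that hold pyruvate dehydrogenase inactive, fell by 1.78 and 1.04 on the log2 scale. The PDK3 call was lost without D0 replicate 1 (log2 -0.93). LDHB, the subunit that predominates in oxidative tissue, was at 1394 and 1305 TPM, against 1927 and 2043 TPM at D0, and its log2 difference of -0.56 was too small for a call.

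Among the upper enzymes, the aldolase ALDOC was at 19.1 and 15.2 TPM in D4 untreated libraries, against 106 and 89.7 TPM at D0 (log2 -2.45, SE 0.22, limma adjusted p = 4.52e-09). The main muscle-type aldolase ALDOA stood at 386 and 416 TPM, against 1375 and 978 TPM at D0 (log2 -1.53). HK1, the housekeeping hexokinase that commits glucose to the pathway, was at 24.1 and 28.0 TPM, against 125 and 129 TPM at D0 (log2 -2.24, SE 0.11, limma adjusted p = 3.16e-13). These groups did not overlap for any of the 3. GPI, which converts glucose 6-phosphate to fructose 6-phosphate, and PFKP, the platelet-type phosphofructokinase, fell by 1.31 and 1.29 on the log2 scale. The muscle-type phosphofructokinase PFKM had a log2 difference of 0.88, at 149 and 135 TPM against 74.3 and 78.7 TPM at D0, which did not reach the size needed.

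In lower glycolysis PGK1, the first ATP-making step, was at 169 and 161 TPM in D4 untreated libraries, against 714 and 411 TPM at D0 (log2 -1.71, SE 0.18, limma adjusted p = 4.71e-08). ENO2, the neuron-type enolase, fell to 42.9 and 43.7 TPM, against 159 and 112 TPM at D0 (log2 -1.60). The D4 values of both genes were below both D0 values. GAPDH, PGAM1, ENO1 and PKM had log2 differences between -0.84 and -0.37 and were not called, nor was TPI1 at -0.70. GAPDH, often used as a reference gene, was at 2786 and 3022 TPM, against 4080.0 and 3459.7 TPM at D0. The 17 glycolytic enzymes summed to 0.809% ± 0.0151 of all TPM in D4 untreated cells and to 1.38% ± 0.174 in D0 cells (SD, n = 2 each).

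Of the 2 main glucose importers only SLC2A3 (GLUT3), the high-affinity transporter of neurons and early embryos, fell. It was at 53.3 and 56.8 TPM in D4 untreated libraries, against 253 and 227 TPM at D0 (log2 -2.11, SE 0.17, limma adjusted p = 7.90e-10). SLC2A1 (GLUT1), the general importer, was at 232 and 259.8 TPM, between the D0 values of 321 and 207 TPM (log2 -0.07, not called).

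Among hypoxia targets, the collagen prolyl hydroxylase P4HA2 was at 0.650 and 1.16 TPM in D4 untreated libraries, against 14.1 and 6.55 TPM at D0 (log2 -2.50, SE 0.28, limma adjusted p = 1.72e-07). The vasoactive peptide gene ADM was at 3.32 and 4.30 TPM, against 21.5 and 30.3 TPM at D0 (log2 -2.47, SE 0.35, limma adjusted p = 4.43e-06). BNIP3, a mitophagy receptor, was at 22.4 and 23.2 TPM, against 143 and 75.3 TPM at D0 (log2 -2.14, SE 0.19, limma adjusted p = 4.26e-09). None of these groups overlapped. VEGFA, the angiogenic growth factor, fell by 1.18 on the log2 scale, but the call was lost without D0 replicate 1 (log2 -0.98) or without D4 untreated replicate 1 (log2 -0.99). KDM3A, a histone demethylase, and MXI1, a MYC antagonist, had positive log2 differences of 0.74 and 0.47 that were not called. BNIP3 has 39 pseudogene rows in the table whose summed TPM reached 162% of the gene's own value in some library. BNIP3 and these rows together averaged 48.7 TPM in D4 untreated cells and 129 TPM in D0 cells.

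At day 8 without CT the low levels were still present. In D8 untreated cells against D0 cells 18 of the 40 genes fell and 1 rose, when 8.2% and 10.9% of all genes tested fell and rose. This comparison uses the same 2 D0 libraries as the day 4 one. LDHA was at 34.2 and 31.0 TPM in D8 untreated libraries (log2 -4.52 against D0), ALDOC at 13.7 and 10.6 TPM (log2 -2.91) and PGK1 at 169 and 139 TPM (log2 -1.82). Lower glycolysis now had 3 of 6 genes called lower, PGK1, PGAM1 and ENO1, with log2 differences of -1.47 for PGAM1 and -1.30 for ENO1. Without D0 replicate 1 the GPI call (log2 -0.99) and the P4HA2 call (log2 -0.60) were lost. The riser was SLC2A1, at 519 and 562 TPM in D8 untreated libraries, against 321 and 207 TPM at D0 (log2 1.06, SE 0.20, limma adjusted p = 1.82e-04), and it was lost without D0 replicate 2 (log2 0.75) and after median-of-ratios scaling (log2 0.84).

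Set directly against D4 untreated cells, D8 untreated cells had 5 genes higher and 2 lower, when 4.11% and 1.67% of all genes tested were called. HK2, the inducible hexokinase, fell to 10.2 and 11.5 TPM at D8, against 35.6 and 33.1 TPM at D4 (log2 -1.58, SE 0.12, limma adjusted p = 4.36e-09). EGLN3 also fell (log2 -1.32). P4HA2, VEGFA, ENO2, SLC2A1 and NDRG1, a stress-responsive differentiation gene, rose by log2 1.41, 1.32, 1.22, 1.13 and 1.04. The NDRG1 call, at an adjusted p of 0.0493 by limma, was lost under 9 of the settings tried. In CT4.0 cells only VEGFA (log2 1.04) and ENO2 (log2 1.09) were called between D8 and D4, both higher, when 1.95% of all genes tested rose and 3.81% fell. Both calls were lost without D4 CT4.0 replicate 2 (log2 0.99 and 0.95).

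CT at 4.0 µM went with higher levels of many enzymes, transporters and hypoxia targets. In D4 CT4.0 cells against D4 untreated cells 18 of the 40 genes rose and 2 fell, when 3.31% of all genes tested rose and 4.99% fell. In D8 CT4.0 cells against D8 untreated cells 18 rose and 3 fell, when 3.15% rose and 12.7% fell over all genes tested. The counts that fell were near or below the all-gene shares. The median log2 difference of the 40 was 0.69 at D4, against -0.06 over all genes, and 0.97 at D8, against -0.27 over all genes. The 2 days have separate libraries on both sides. Of the genes that rose, 15 did so on both days, which is 83.3% of the 18 at D4 and 83.3% of the 18 at D8. The same overlap over all genes was not computed, so this share cannot be called particular to the set. EGLN1, ENO2 and PKM were called at D4 only and ADM, ANKRD37 and HK2 at D8 only, which by itself does not show that their response differed between days. After median-of-ratios scaling the D8 comparison had 25 genes higher and 2 lower, when 1456 and 2026 of all genes tested were.

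The lactate genes led the list. LDHA was at 483 and 446 TPM in D4 CT4.0 libraries, against 34.5 and 35.9 TPM in D4 untreated libraries (log2 3.68, SE 0.21, limma adjusted p = 6.84e-12). At D8 it was at 372 and 459 TPM under CT4.0, against 34.2 and 31.0 TPM untreated (log2 3.62, SE 0.21, limma adjusted p = 6.36e-12). The CT4.0 libraries were all well above the untreated ones and did not overlap them. SLC16A3 was at 135 and 95.9 TPM in D4 CT4.0 libraries, against 3.46 and 4.04 TPM untreated (log2 4.60, SE 0.34, limma adjusted p = 4.64e-10), and its D8 log2 difference was 4.25. SLC16A1 did not follow. It was at 159.7 and 169 TPM in D4 CT4.0 libraries, against 166 and 163 TPM untreated (log2 0.00 ± 0.14, SE, not called), and at D8 its log2 difference was -0.29. PDK1 rose by 2.19 at D4 and 1.91 at D8 on the log2 scale. LDHB had log2 differences of 0.26 and 0.33 and was not called.

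**Figure D2:**
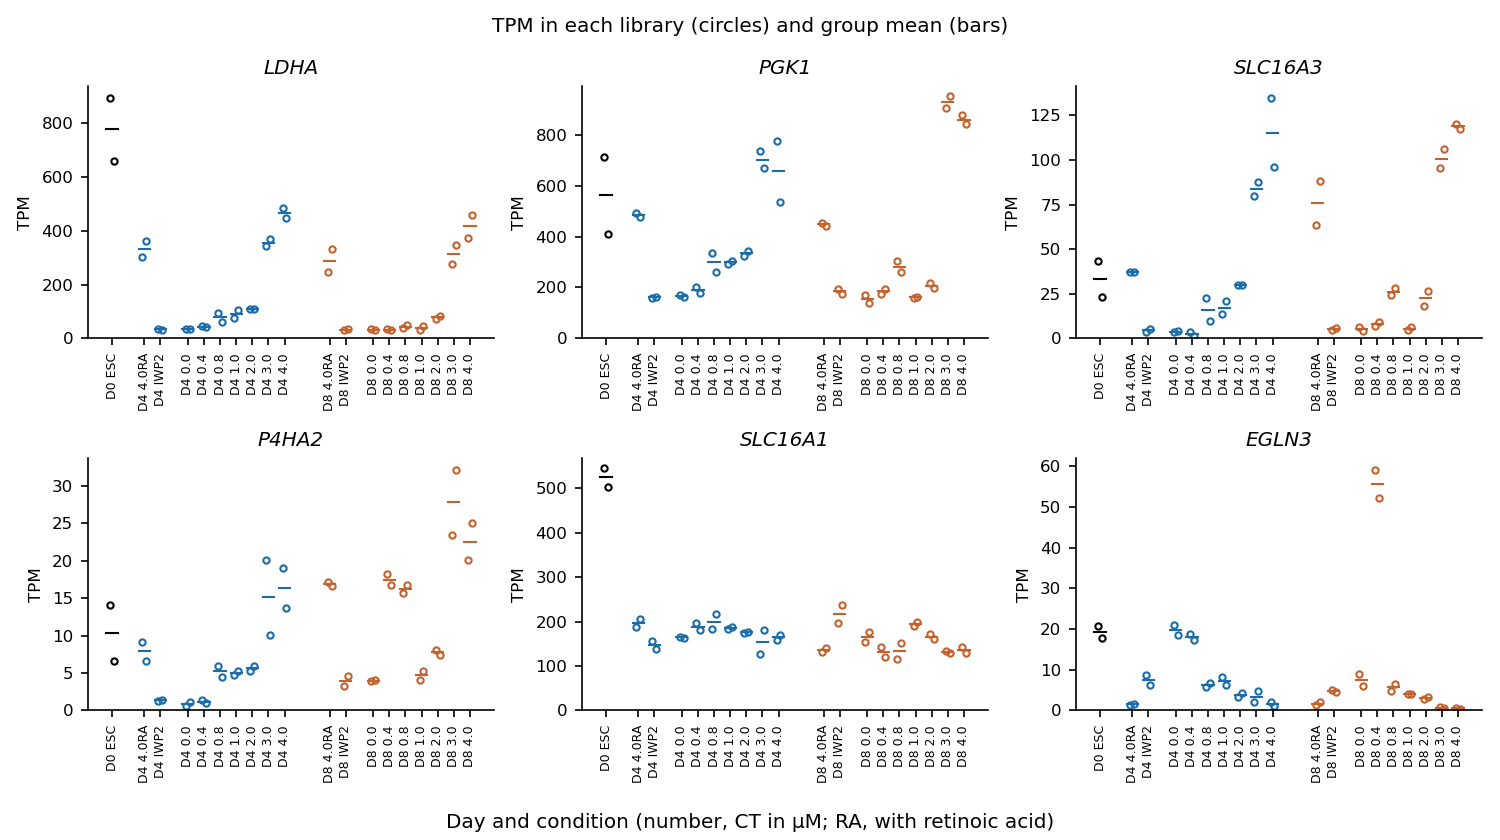
TPM in each library (circles) and the mean of 2 (bars) for LDHA, PGK1, SLC16A3, P4HA2, SLC16A1 and EGLN3 in the 19 groups, with TPM on the vertical axis starting at 0. The first 4 genes are low in untreated cells and high at CT3.0 and CT4.0 of both days, and SLC16A1 is highest at D0. EGLN3 is low at the highest CT doses and highest at D8 CT0.4, with D0, D4 untreated and D4 CT0.4 next.

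Of the upper enzymes, ALDOC stood at 70.8 and 51.2 TPM in D4 CT4.0 libraries, against 19.1 and 15.2 TPM untreated (log2 1.76), and at 80.3 and 87.3 TPM in D8 CT4.0 libraries, against 13.7 and 10.6 TPM untreated (log2 2.70). GPI rose by 1.44 and 1.95 and ALDOA by 1.34 and 1.69 on the log2 scale at D4 and D8. TPI1, which interconverts the triose phosphates, rose by 1.04 and 1.23. None of the 3 phosphofructokinases rose. PFKM fell at D4 (log2 -1.28, SE 0.17, limma adjusted p = 3.89e-06) and PFKP fell at D8 (log2 -1.42, SE 0.21, limma adjusted p = 8.45e-06), and the liver-type PFKL was at 64.7 and 63.6 TPM in D4 CT4.0 libraries, against 66.7 and 70.6 TPM untreated, with no call. HK1 had log2 differences of 0.58 at D4 and 0.53 at D8 that were too small for a call.

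HK2 was called higher at D8 and not at D4. It was at 60.5 and 62.3 TPM in D8 CT4.0 libraries, against 10.2 and 11.5 TPM untreated (log2 2.40, SE 0.12, limma adjusted p = 6.60e-13). At D4 it was at 54.2 and 40.8 TPM under CT4.0, against 35.6 and 33.1 TPM untreated (log2 0.44, not called). The test of the difference between the 2 responses gave a log2 value of 1.96, SE 0.17, limma adjusted p = 1.00e-07. Of these 8 libraries the 2 D8 untreated ones were the lowest. Over all genes tested this test called 1.67% higher and 6.52% lower, and among the 40 it called 2 higher, HK2 and ADM, and 1 lower, SLC2A1. For ADM the value was 1.52 (limma adjusted p = 0.0351), and it was lost under 8 of the settings tried. For SLC2A1 it was -1.11 (limma adjusted p = 0.00932), and it was lost after median-of-ratios scaling (log2 -0.85) and without D4 CT4.0 replicate 1 (log2 -0.86).

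In lower glycolysis PGK1 was at 773 and 537 TPM in D4 CT4.0 libraries, against 169 and 161 TPM untreated (log2 1.96, SE 0.18, limma adjusted p = 1.18e-08), and at 876 and 839.9 TPM in D8 CT4.0 libraries, against 169 and 139 TPM untreated (log2 2.48). ENO1, the general enolase, rose by 1.07 at D4 and 1.40 at D8. ENO2 and PKM, the pyruvate kinase, were called at D4 with log2 differences of 1.10 and 1.00. Without D4 CT4.0 replicate 1 the D4 calls of ENO1 (log2 0.95), ENO2 (0.96), TPI1 (0.95) and PKM (0.97) were lost, and PKM was also lost without D4 untreated replicate 1 (0.97). GAPDH and PGAM1 had D8 log2 differences of 0.44 and 0.73 and were not called. The 17 glycolytic enzymes summed to 1.34% ± 0.0994 of all TPM in D4 CT4.0 cells and 0.809% ± 0.0151 in untreated cells, and to 1.33% in both D8 CT4.0 libraries, against 0.704% ± 0.0170 in D8 untreated cells (SD, n = 2).

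SLC2A3 rose on both days. It was at 398 and 317 TPM in D4 CT4.0 libraries, against 53.3 and 56.8 TPM untreated (log2 2.67, SE 0.17, limma adjusted p = 3.27e-11), and at 218 and 237 TPM in D8 CT4.0 libraries, against 41.3 and 35.6 TPM untreated (log2 2.54). SLC2A1 was at 219.5 and 239 TPM in D8 CT4.0 libraries, against 519 and 562 TPM untreated, and fell (log2 -1.23, SE 0.20, limma adjusted p = 3.61e-05). That call was lost after median-of-ratios scaling (log2 -0.85). The pair went in opposite directions at D8 on the deposited scale, with neither sign turned by the other scalings. Of the switch enzymes, which make or remove the fructose 2,6-bisphosphate signal to phosphofructokinase, PFKFB4 rose (log2 2.51 at D4 and 2.07 at D8). PFKFB3 did not pass (log2 0.05 and 0.29).

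Of the 11 hypoxia targets 4 rose at D4 and 6 at D8, and none fell. The all-gene shares that rose and fell were 3.31% and 4.99% at D4 and 3.15% and 12.7% at D8. Among 11 genes, a lack of falls is near those shares. P4HA2 was at 19.0 and 13.6 TPM in D4 CT4.0 libraries, against 0.650 and 1.16 TPM untreated (log2 3.18, SE 0.28, limma adjusted p = 9.02e-09). P4HA1, the main catalytic subunit of the same enzyme, was at 139 and 139 TPM in D8 CT4.0 libraries, against 30.6 and 31.3 TPM untreated (log2 2.13, SE 0.15, limma adjusted p = 1.95e-10). The groups stood clear of each other for both. BNIP3 rose by 2.76 at D4 and 2.52 at D8 on the log2 scale, and with its pseudogene rows it averaged 186 TPM in D4 CT4.0 cells and 48.7 TPM in untreated cells. VEGFA was at 104 and 106 TPM in D8 CT4.0 libraries, against 35.5 and 39.1 TPM untreated (log2 1.47). ADM was at 12.7 and 14.7 TPM, against 1.50 and 2.57 TPM untreated (log2 2.30, SE 0.35, limma adjusted p = 1.18e-05), and ANKRD37, a small ankyrin-repeat protein gene, rose at D8 (log2 1.68). MXI1 and KDM3A had D8 log2 differences of 0.97 and 0.89, just short of the size needed, and BNIP3L, the sister of BNIP3, was at 67.6 and 65.2 TPM in D8 CT4.0 libraries, against 76.1 and 69.4 TPM untreated. NDRG1 was at 6.93 and 3.85 TPM, against 4.97 and 6.17 TPM untreated, with no call. CA9, a cell-surface carbonic anhydrase often used as a hypoxia marker, was at 8.09 and 0.230 TPM in the D8 CT4.0 libraries, against 0.0669 and 0.553 TPM untreated, so 1 library alone held the signal, and it was not called (limma adjusted p = 0.0524). The table gives no strand, and genes on the opposite strand overlap SLC16A3 (CSNK1D, up to 122 TPM), P4HA2 (PDLIM4, up to 32.1 TPM), BNIP3 (RP11-45A17.2, up to 53.7 TPM), PFKM (SENP1, up to 33.4 TPM), ANKRD37 (UFSP2, up to 37.7 TPM) and CA9 (ARHGEF39, up to 20.6 TPM), so reads of such pairs cannot be told apart unless strand was used. The same holds, among others, for PDK1 (AC093818.1, up to 13.4 TPM), VEGFA (RP1-261G23.7, up to 15.5 TPM), P4HA1 (RP11-344N10.4, up to 16.4 TPM) and BNIP3L (PNMA2, up to 42.5 TPM).

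Of the 4 HIF subunits and oxygen sensors 1 rose and 1 fell at D4, and 0 rose and 1 fell at D8. Of all genes tested 3.31% rose and 4.99% fell at D4, and 3.15% rose and 12.7% fell at D8. Counts among only 4 genes can hardly be read against these shares. HIF1A was at 85.6 and 96.2 TPM in D4 CT4.0 libraries, against 156 and 165 TPM untreated (log2 -0.82, SE 0.11, limma adjusted p = 4.84e-06, below the size needed for a call). Its D8 log2 difference was -0.47. EPAS1, which encodes HIF-2α, stayed at or below 1.67 TPM in every library. EGLN1, the main oxygen-sensing prolyl hydroxylase, was at 23.6 and 19.1 TPM in D4 CT4.0 libraries, against 5.15 and 8.29 TPM untreated, and rose (log2 1.56, SE 0.24, limma adjusted p = 3.64e-05). EGLN3, a hydroxylase of the same family and usually itself a HIF target, fell on both days. It was at 2.04 and 1.04 TPM in D4 CT4.0 libraries, against 21.0 and 18.5 TPM untreated (log2 -3.06, SE 0.26, limma adjusted p = 4.57e-09), and at 0.554 and 0.430 TPM in D8 CT4.0 libraries, against 8.93 and 5.91 TPM untreated (log2 -2.47). SPTSSA, on the same strand, overlaps EGLN3 in the annotation and reached 42.3 TPM.

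**Figure D3:**
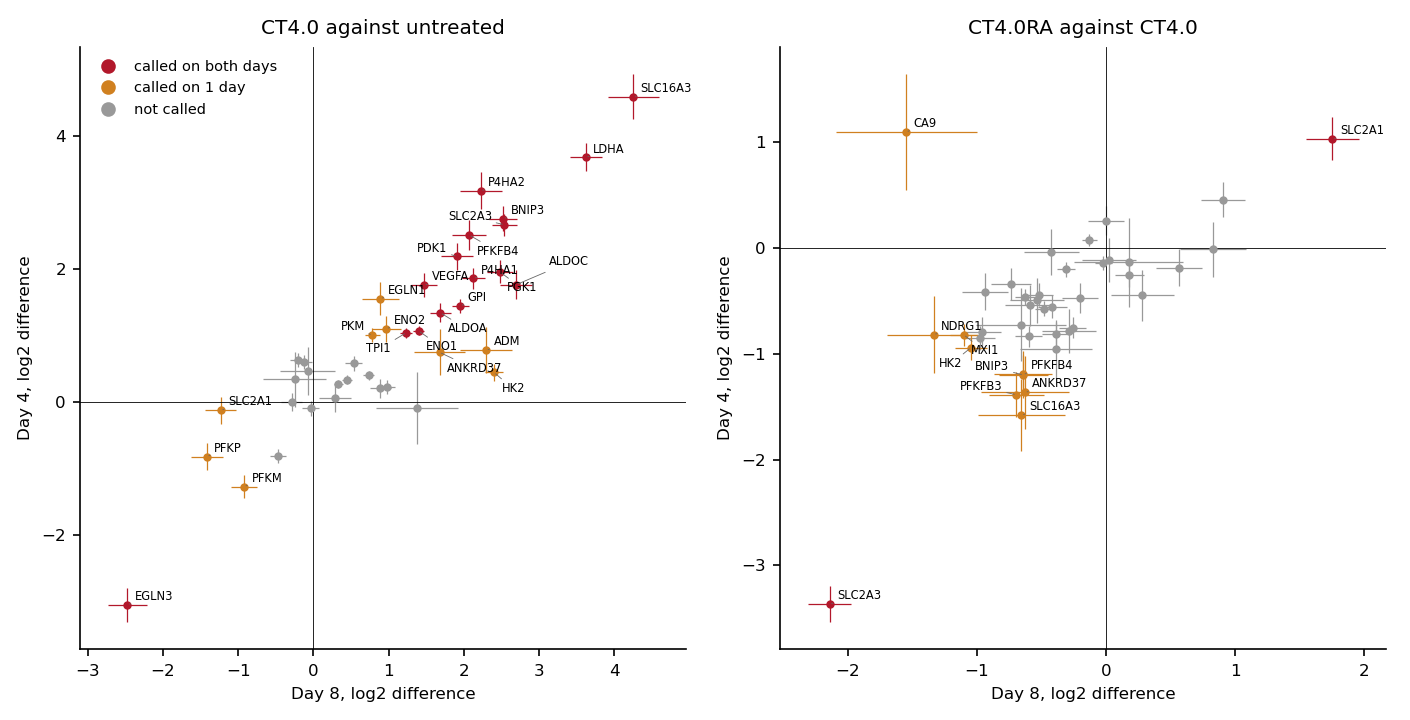
Log2 differences of the 40 genes at D8 (horizontal axis) and D4 (vertical axis) for CT4.0 against untreated (left) and CT4.0RA against CT4.0 (right), with standard errors as bars and called genes named. On the left SLC16A3 and LDHA lie farthest to the upper right and EGLN3 alone lies far to the lower left. On the right SLC2A3 and SLC2A1 lie at opposite ends.

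The CT4.0 libraries were also set against D0. In D4 CT4.0 cells 3 of the 40 genes were higher than at D0 and 5 lower, when 4.71% and 9.45% of all genes tested were called. In D8 CT4.0 cells 8 were higher and 4 lower, when 6.03% and 13.8% were called. The counts of lower genes on both days, and of higher genes at D4, are near the shares over all genes. LDHA did not reach its D0 level on average but was not called lower, at log2 -0.72, SE 0.21, limma adjusted p = 0.0106 at D4. PGK1 and ALDOC had D8 log2 differences from D0 of 0.66 and -0.21. HK1, SLC16A1 and PFKP stayed below D0 on both days, with D8 log2 differences of -1.45, -1.94 and -2.03, as did EGLN3 at -3.76. ADM was below D0 at D4 (log2 -1.70). SLC16A3 and PFKFB4 were above D0 on both days, SLC16A3 by 1.81 at D4 and 1.87 at D8 and PFKFB4 by 1.78 and 1.42 on the log2 scale. P4HA1 was above D0 at D8 by 1.95, and its D4 call was lost without D0 replicate 2 (log2 0.93) or D4 CT4.0 replicate 1 (0.99). MXI1, VEGFA and KDM3A were above D0 at D8 by 1.62, 1.62 and 1.41. The D8 calls of P4HA2 and ANKRD37 were each lost without D0 replicate 2 (log2 0.64 and 0.83), without D8 CT4.0 replicate 2 for P4HA2 (0.98) and without D8 CT4.0 replicate 1 for ANKRD37 (0.96). These comparisons share their D0 and CT4.0 libraries with the ones above, so their values are set side by side only.

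On both days the most genes were called at the 2 highest CT doses. The number of the 40 called higher than untreated at D4 went 0, 8, 7, 10, 16 and 18 over CT0.4, 0.8, 1.0, 2.0, 3.0 and 4.0, when 0.659%, 1.18%, 1.44%, 2.1%, 2.87% and 3.31% of all genes tested were called higher. At D8 the numbers were 3, 7, 1, 2, 20 and 18, when 3.55%, 1.97%, 1.79%, 2.06%, 3.11% and 3.15% of all genes tested were. All doses share the 2 untreated libraries of their day. Calls lower than untreated numbered 1 or 2 of the 40 at the D4 doses up to CT3.0 and between 1 and 3 at the D8 doses up to CT3.0, against all-gene shares of 1.57%, 1.51%, 3.78%, 3.85% and 4.48% at D4 and of 2.48%, 2.58%, 2.8%, 4.34% and 13.1% at D8. EGLN3 was called lower at every D4 dose from CT0.8.

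LDHA averaged 35.2, 43.9, 78.7, 91.9, 110.1, 355 and 464 TPM at D4 over CT0.0, 0.4, 0.8, 1.0, 2.0, 3.0 and 4.0, and 32.6, 32.7, 44.3, 38.8, 78.4, 311 and 415 TPM at D8 over the same doses. At D4 it was called from CT0.8 up and at D8 from CT2.0 up, and the widest gap between neighbouring doses was from CT2.0 to CT3.0 on both days. PGK1 averaged 165, 191, 298, 298, 334, 701 and 655 TPM at D4 and 154, 186, 282, 161, 208, 928 and 858 TPM at D8. At D4 CT0.8 the calls of LDHA (log2 0.79) and SLC16A3 (1.18, limma adjusted p = 0.066) were lost without CT0.8 replicate 1, and that of VEGFA without CT0.8 replicate 1 (0.95) or untreated replicate 1 (0.85). At D4 CT2.0 EGLN1 was lost without untreated replicate 1 (0.87) and PGK1 without untreated replicate 2 (0.98) or CT2.0 replicate 2 (0.97). At D8 CT3.0 ENO2 was lost without untreated replicate 2 (0.86).

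SLC2A3 did not follow the dose in order. Its means at D4 were 55.0, 31.2, 311, 304, 60.0, 294 and 357 TPM over the 7 doses from CT0.0 to CT4.0, with 67.2 and 52.9 TPM at CT2.0 between 318 and 289.9 TPM at CT1.0 and 270.0 and 317 TPM at CT3.0. Neither CT2.0 library overlapped either neighbour, and CT2.0 was not called against untreated (log2 0.11). At D8 the means were 38.5, 176, 78.5, 50.3, 34.4, 212 and 228 TPM, with CT0.4 the highest of the low doses at 224 and 129 TPM. D8 CT0.4 cells stood apart for other genes too. EGLN3 was at 59.1 and 52.3 TPM there, against 8.93 and 5.91 TPM untreated (log2 2.77, SE 0.26, limma adjusted p = 3.16e-08), the highest level of EGLN3 in any group. P4HA2 was at 18.2 and 16.7 TPM, against 3.98 and 4.01 TPM untreated (log2 1.88), while LDHA, at 34.0 and 31.5 TPM, against 34.2 and 31.0 TPM untreated, was not called. SLC2A1 fell there (log2 -1.75). Marker levels differed in the same libraries, and their part in these values was not tested. The 7 neural crest markers summed to 195 and 159 TPM at D8 CT0.4, against 10.5 and 10.9 TPM untreated, with 3 of 7 called higher and SOX10 at 0.206 and 0.358 TPM. The 7 neuron markers summed to 606 and 509.7 TPM, against 371 and 364 TPM untreated, with 3 of 6 tested called higher and 1 lower. The 8 neural progenitor markers summed to 1161 and 1223 TPM, against 1477 and 1456 TPM untreated, with 2 called higher and 3 lower, and PAX6 was at 353 and 406 TPM, against 126 and 95.1 TPM untreated. T and SOX17 were listed at 0 in both groups. At D8 CT1.0 the only calls were ADM, higher, and NDRG1, lower (log2 1.34 and -1.21), and both were lost when some single libraries were left out. With those left out ADM lay between 1.08 and 1.37 and NDRG1 between -1.34 and -0.69.

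**Figure D4:**
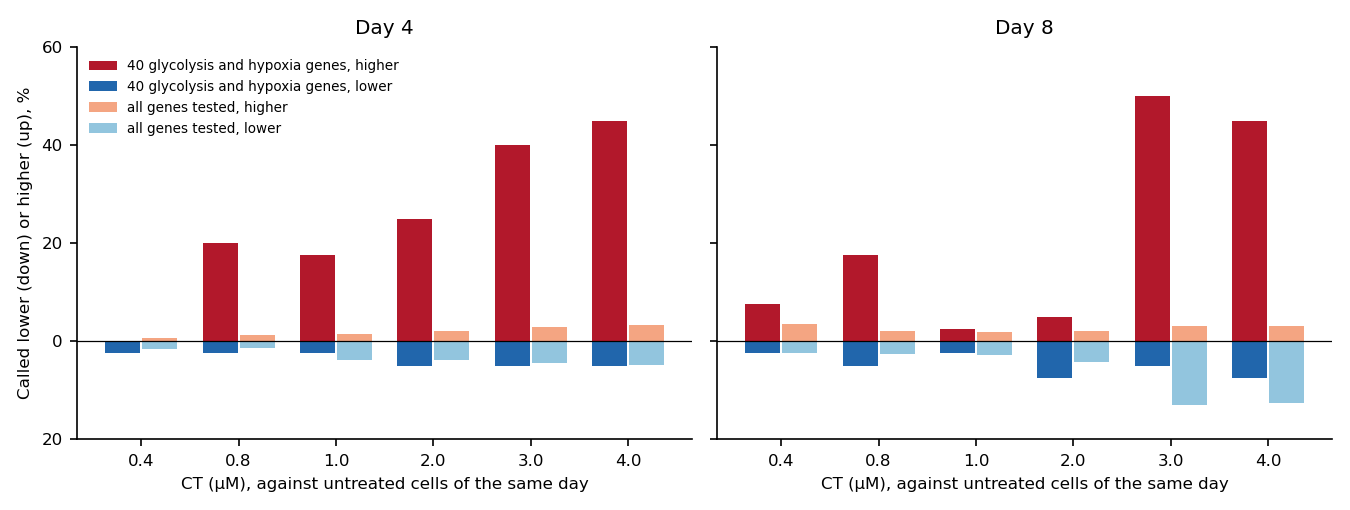
Percent of the 40 genes and of all 28221 genes tested called higher (upward) and lower (downward) than untreated cells, by CT dose in µM, at D4 and D8. At D4 the share of the 40 called higher reaches 45% at CT4.0 and at D8 it reaches 50% at CT3.0, while that of all genes stays at or below 3.55%.

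Pairs of related genes differed in proportion as well as in level. LDHA made up 2.55% ± 0.187 of the LDHA and LDHB transcripts in D4 untreated cells and 28.0% ± 5.14 in D0 cells (SD, n = 2 each), with LDHB the larger in every group. Under CT4.0 the LDHA share was 22.3% ± 1.56 at D4 and 21.3% ± 2.09 at D8, against 2.61% in D8 untreated cells. SLC16A3 made up 41.0% ± 6.77 of SLC16A1 and SLC16A3 transcripts in D4 CT4.0 cells and 46.7% ± 1.30 in D8 CT4.0 cells, against 2.23% and 3.18% in the untreated cells of each day and 5.88% ± 2.09 at D0. This share was far above its D0 value at CT4.0, whereas the LDHA share was below or near its own. SLC2A3 made up 6.77% of SLC2A1 and SLC2A3 transcripts in D4 CT4.0RA cells, 61.2% ± 1.93 in D4 CT4.0 cells, 18.3% in D4 untreated cells and 48.2% ± 5.89 at D0. HK2 made up 57.3% of HK1 and HK2 transcripts in D8 CT4.0 cells, against 25.7% in D8 untreated cells.

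**Figure D5:**
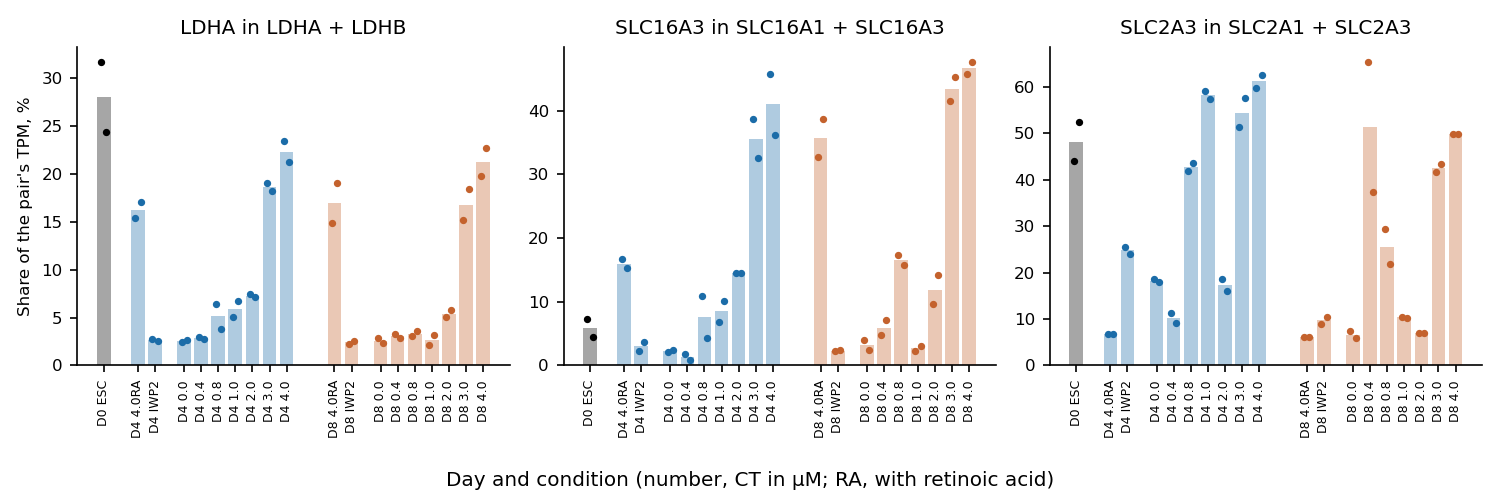
Percent of LDHA in LDHA and LDHB, of SLC16A3 in SLC16A1 and SLC16A3 and of SLC2A3 in SLC2A1 and SLC2A3 transcripts (from TPM) in the 19 groups, as library values (circles) and means (bars). The LDHA and SLC16A3 shares are high at CT3.0 and CT4.0 on both days, and the SLC2A3 share is 6.77% at D4 and 6.16% at D8 in CT4.0RA cells. At D8 the SLC2A3 share is about as low in untreated cells (6.67%) and CT2.0 cells (7.01%).

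On the deposited scale, adding RA to CT4.0 went with lower levels of a part of the set. In D4 CT4.0RA cells against D4 CT4.0 cells 6 of the 40 genes fell and 1 rose, when 4.07% and 1.77% of all genes tested fell and rose. In D8 CT4.0RA cells against D8 CT4.0 cells 5 fell and 1 rose, when 4.33% and 4.54% fell and rose. Of these 5, CA9 rested on 1 CT4.0 library. The median log2 difference of the 40 was -0.52 at D4, against -0.18 over all genes, and -0.50 at D8, against 0.00. After median-of-ratios scaling the D8 counts were 3 lower and 2 higher, when 1095 and 1700 of all genes tested were. With ribosomal protein and mitochondrial genes left out of the total they were 3 and 3, when 1058 and 1970 of all genes were. Under these scalings the counts of higher genes were near the all-gene shares, and those of lower genes not far above them. The D4 counts also moved when single libraries were left out.

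The 2 glucose importers gave the clearest and opposite differences. SLC2A3 was at 35.6 and 31.6 TPM in D4 CT4.0RA libraries, against 398 and 317 TPM in D4 CT4.0 libraries (log2 -3.37, SE 0.17, limma adjusted p = 1.44e-12), and its D8 log2 difference was -2.14. SLC2A1 was at 757 and 794 TPM in D8 CT4.0RA libraries, against 219.5 and 239 TPM in D8 CT4.0 libraries (log2 1.75, SE 0.20, limma adjusted p = 5.63e-07). All RA libraries lay beyond both CT4.0 libraries in each case. The D4 call of SLC2A1 (log2 1.03) was lost without D4 CT4.0 replicate 2 (0.79) or D4 CT4.0RA replicate 1 (0.95).

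LDHA was not called under RA on either day. It was at 301 and 361 TPM in D4 CT4.0RA libraries, against 483 and 446 TPM in D4 CT4.0 libraries (log2 -0.49, SE 0.21), and at 245 and 331 TPM, against 372 and 459 TPM, at D8 (log2 -0.53). SLC16A3 was at 37.4 and 37.4 TPM in D4 CT4.0RA libraries, against 135 and 95.9 TPM in D4 CT4.0 libraries, and fell (log2 -1.58, SE 0.34, limma adjusted p = 0.00133). PFKFB3 and ANKRD37 also fell at D4 (log2 -1.39 and -1.36). The D4 calls of BNIP3 (log2 -1.20) and PFKFB4 (log2 -1.19) were lost after median-of-ratios scaling (-0.90 for both) and without D4 CT4.0 replicate 1 (-0.98 and -0.78). At D8 MXI1 (log2 -1.10) and HK2 (log2 -1.05) fell on the deposited scale, but under median-of-ratios scaling they were at -0.98 and -0.92 and not called, and with ribosomal protein and mitochondrial genes left out at -0.94 and -0.87. HK2 was also lost without D8 CT4.0RA replicate 1. NDRG1 fell at D8 (log2 -1.33), and was lost without D8 CT4.0 replicate 1 (-0.98) or D8 CT4.0RA replicate 1 (-1.22, limma adjusted p = 0.062). CA9 was called at D8 (log2 -1.55) through the 1 CT4.0 library that held it, stood at -0.11 without that library, and lost the call without either RA library, with no filter or at a pseudocount of 0.1.

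IWP2 gave few calls in the set. In D4 IWP2 cells against D4 untreated cells 1 of the 40 genes was called, EGLN3, lower, when 0.124% of all genes tested were lower and 0.159% higher. EGLN3 was at 8.72 and 6.23 TPM in D4 IWP2 libraries, against 21.0 and 18.5 TPM untreated (log2 -1.30, SE 0.26, limma adjusted p = 0.0156), a call lost at a pseudocount of 0.1 (log2 -1.41, limma adjusted p = 0.061) and without single libraries. At D8 limma called 0 of the 40, when 0.195% of all genes tested were higher and 0.23% lower. This does not show that the 40 were unchanged. LDHA was at 30.9 and 35.3 TPM in D8 IWP2 libraries, against 34.2 and 31.0 TPM untreated.

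Other genes of the same pathways, which are not among the 40, were read alongside. Of 37 further hypoxia targets tested, 15 fell and 2 rose in D4 untreated cells against D0 cells, with a median log2 difference of -0.69. Over all genes tested 9.24% fell and 7.51% rose. In D4 CT4.0 cells against untreated cells 16 rose and 1 fell (median 0.82), and in D8 CT4.0 cells 13 rose and 3 fell (median 0.62). Over all genes tested 3.31% rose and 4.99% fell at D4, and 3.15% rose and 12.7% fell at D8. AK4, a mitochondrial adenylate kinase, was at 48.5 and 33.6 TPM in D4 CT4.0 libraries, against 1.64 and 2.37 TPM untreated (log2 3.79), and was at 53.9 and 67.5 TPM at D0. PLOD2, a collagen lysyl hydroxylase, and BHLHE40, a transcriptional repressor, rose by 3.23 and 3.20 on the log2 scale at D4. IGFBP3, an insulin-like growth factor binding protein that is also listed as a hypoxia target, went the other way. It was at 0.290 and 0.502 TPM in D4 CT4.0 libraries, against 84.9 and 98.4 TPM untreated (log2 -6.05), and it rose under RA at D4 (log2 3.99). Under RA 8 of the 37 fell and 1 rose at D4, and 5 fell and 1 rose at D8. For RA the all-gene shares that fell and rose were 4.07% and 1.77% at D4 and 4.33% and 4.54% at D8. In each of these comparisons the smaller count was near or below its all-gene share.

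Of 33 other genes of glucose and pyruvate metabolism tested 8 fell and 1 rose at D4 without CT against D0. There 9.24% of all genes tested fell and 7.51% rose. In CT4.0 cells against untreated cells 2 rose and 2 fell at D4, where 3.31% of all genes tested rose and 4.99% fell, and 1 rose and 4 fell at D8, where 3.15% rose and 12.7% fell. These counts of lower genes are near the shares over all genes. PGM1, which links glycogen to glycolysis, was at 47.1 and 35.5 TPM in D4 CT4.0 libraries, against 3.62 and 4.15 TPM untreated (log2 3.10), and at 61.0 and 46.6 TPM at D0. The mitochondrial pyruvate carrier MPC1 rose at D4 (log2 1.08), and the phosphatase PDP1, which activates pyruvate dehydrogenase, fell at D8 (log2 -2.13). Of 6 further HIF pathway genes ARNT2 rose at D4 without CT against D0 (log2 1.63), and EGLN2 fell in D8 CT4.0 cells against untreated (log2 -1.05). Of 8 pentose phosphate genes tested TKT and TALDO1 fell at D4 without CT (log2 -1.48 and -1.09), and 0 passed limma's rule under CT4.0 on either day.

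Markers of cell types and of pluripotency moved along with these comparisons, and their part in the results was not tested. POU5F1 averaged 26.5 TPM in D4 untreated cells and 2457 TPM at D0, and it averaged 22.1 TPM in D4 CT4.0 cells, while NANOG was at or below 0.236 TPM in every induced library. The 14 pluripotency markers summed to 799 and 814 TPM in D4 CT4.0 libraries, against 1249 and 1291 TPM in untreated ones. The mesoderm marker T (TBXT) was at 31.3 and 41.3 TPM in D4 CT4.0 libraries and averaged 0.548 TPM in untreated cells. The 10 mesoderm markers in the table, of 11 listed and 4 tested, summed to 33.7 and 47.1 TPM in D4 CT4.0 libraries, against 1.49 and 1.92 TPM untreated, with 1 called higher, and at D8 to 24.6 and 25.6 TPM, against 1.95 and 2.64 TPM untreated. The 8 neural progenitor markers summed to 333 and 318 TPM in D4 CT4.0 libraries, against 934 and 962 TPM untreated, with 5 of 8 called lower, and PAX6 averaged 1.49 TPM against 103 TPM. At D8 they summed to 278 and 276 TPM under CT4.0, against 1477 and 1456 TPM untreated, with 8 of 8 lower, SOX1 included at a mean of 0.113 TPM against 13.8 TPM.

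The RA libraries held other marker levels than the CT4.0 libraries. T averaged 0.248 TPM in D4 CT4.0RA cells and 0 TPM in D8 CT4.0RA cells, against 36.3 and 22.2 TPM in the CT4.0 cells of each day, and PAX6 averaged 168 and 326 TPM under RA, against 1.49 and 1.54 TPM under CT4.0. LDHA in the same RA libraries was between 245 and 361 TPM, above every untreated library, although the difference from untreated was not tested. The 8 endoderm markers summed to 38.9 and 38.04 TPM in D4 CT4.0 libraries, against 4.58 and 5.45 TPM untreated, with 1 of 4 tested called higher. That gene was CXCR4, named after its values were seen, which also stands in the list of further hypoxia targets (log2 2.82). SOX17 was at or below 0.0544 TPM in every induced library. The 7 neural crest markers summed to 9.78 and 10.1 TPM in D4 CT4.0 libraries, against 3.25 and 5.41 TPM untreated, with SOX10 at or below 0.845 TPM in every induced library. The 4 endothelial markers summed to 5.40 and 6.10 TPM in D4 CT4.0 libraries, against 12.6 and 12.6 TPM untreated, and to 1.85 and 0.966 TPM in D8 CT4.0 libraries, against 13.2 and 14.3 TPM untreated, with 1 of 3 tested called lower on each day. The 7 neuron markers summed to 203 and 274 TPM in D4 CT4.0 libraries, against 254 and 278 TPM untreated, with 2 of 6 tested called higher and 2 lower. At D8 they summed to 193 and 201 TPM under CT4.0, against 371 and 364 TPM untreated, with 2 called higher and 3 lower.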

How the data were processed

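The deposited values are TPM per gene for each of the 38 libraries, made by the authors from paired-end poly(A) reads of 1 of 2 HiSeq models (which one is not given per library). The submitters' processing notes name CASAVA 1.7, Salmon 0.8.2 and build hg38; the order, settings and strand were not given in the sources used here. TPM keeps no depth, so the depth per library is unknown and no counting interval was computed.

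From the TPM, log2(TPM + 1) was fitted with limma 3.58.1 (R 4.3.3; functions lmFit, contrasts.fit, then eBayes with trend=TRUE) over 19 group means and 38 libraries, leaving 19 residual degrees of freedom, for 23 contrasts. The filter kept genes that reached 1 TPM in 2 or more libraries (28221 of 58219). A pseudocount of 1 understates changes of low genes. Groups came from the sample labels. Tables and figures used Python 3.11.15, pandas 2.3.3 and matplotlib 3.10.9, and the fit was tested on simulated data. Gene positions came from GENCODE 29, to which 57881 IDs matched; promoter windows came from RefSeq.

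The 40 genes and all companion and marker lists were chosen with earlier results of these data known. Any of the 40 may be named; of the lists on other glycolysis genes, other hypoxia targets, the HIF pathway, the pentose phosphate pathway and MYC, up to 3 of the largest called changes per direction and comparison; of marker lists, the summed TPM and POU5F1, NANOG, T, SOX17, SOX10, PAX6 and SOX1; of pseudogenes, the summed TPM. Alternatives were a pseudocount of 0.1, no filter, median-of-ratios scaling (over 12447 genes), TPM rescaled without 87 ribosomal protein and 37 mitochondrial genes, a replicate block, and leaving out each library in turn.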

Additional observations from a re-analysis of the deposited data

Results flagged for a closer look

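For 3 of the 40 genes the effect of CT4.0 against untreated cells differed between D8 and D4 by limma's test of that difference, 2 higher and 1 lower. Over all genes tested this test called 1.67% higher and 6.52% lower. Counts this small do not set the 40 apart from all genes. HK2 had a log2 effect of 2.40 at D8 and 0.44 at D4, a difference of 1.96 ± 0.17 (SE). ADM had 2.30 at D8 and 0.78 at D4, a difference of 1.52 ± 0.49 that was lost under 8 of the settings tried, with log2 values between 0.97 and 1.84. SLC2A1 had -1.23 at D8 and -0.13 at D4, a difference of -1.11 ± 0.29. The SLC2A1 call was lost after median-of-ratios scaling (log2 -0.85) and without D4 CT4.0 replicate 1 (log2 -0.86). The CT4.0 libraries of HK2 were at 60.5 and 62.3 TPM at D8 and 54.2 and 40.8 TPM at D4, and those of SLC2A1 at 219.5 and 239 TPM at D8 and 267 and 189 TPM at D4. The untreated libraries of HK2 were at 10.2 and 11.5 TPM at D8 and 35.6 and 33.1 TPM at D4, and those of SLC2A1 at 519 and 562 TPM at D8 and 232 and 259.8 TPM at D4. What lies behind these differences was not tested.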

How the results depend on the processing

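Of the 213 calls of the 40 genes over all comparisons, 199 were kept under each of the 5 other settings, 173 with every library of the groups compared left out in turn, and 171 under all of these; 0 changed sign. Of 211 alternative counts of called genes, 200 were within 1.5 times the main count. The exceptions were D8 against D4 CT4.0 cells (2 calls, 4 after median-of-ratios scaling and between 2 and 4 with a library left out, 4 without D4 CT4.0 replicate 1), D4 IWP2 (1 call, 0 at a pseudocount of 0.1 and between 0 and 1 with a library left out), D4 CT4.0RA (7 calls, between 5 and 11, 11 without D4 CT4.0 replicate 2), D8 CT1.0 (2 calls, between 0 and 2) and D8 IWP2 (0 calls, between 0 and 1, 1 without D8 IWP2 replicate 2). Over all genes tested the replicate numbers do not pair the samples. Of 171 pairs of groups, 0 had same-numbered libraries deviating together with a correlation above 0.1. Within some groups the set as a whole differed between replicates 1 and 2. The 40 genes summed to 1.69% and 1.41% of all TPM in D0 libraries and to 1.59% and 1.42% in D4 CT4.0 libraries. Calls of different genes may therefore not be independent. With the replicate block the counts equalled the main ones except in D8 against D4 untreated cells, with 6 calls against 7.

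Over all genes tested, D4 IWP2 called 80 genes, and 128 and 126 without IWP2 replicate 1 and 2; D8 IWP2 called 120, 79 at a pseudocount of 0.1 and 194 without D8 untreated replicate 2. Scaling moved the split of higher and lower calls. After median-of-ratios scaling it was 1456 higher and 2026 lower in D8 CT4.0 against untreated (main 889 and 3580), 1525 and 2044 in D8 CT3.0 (877 and 3708), 1497 and 3067 in D4 untreated against D0 (2120 and 2608), and 692 and 698 in D4 CT4.0RA against CT4.0 (500 and 1148). With ribosomal protein and mitochondrial genes left out it was 1970 and 1058 in D8 CT4.0RA against CT4.0 (1281 and 1223). Among the 40, D8 CT0.8 had 8 higher and 1 lower under both scalings (main 7 and 2). Over all genes it had 613 and 515 after median-of-ratios scaling and 702 and 616 with those genes left out. Of the 40, D8 CT2.0 had 4 and 2 after median-of-ratios scaling and 5 and 2 with those genes left out (main 2 and 3). Its all-gene counts were 719 and 817, and 766 and 989. Without counts, depth limits cannot be given, and with 2 libraries a group the error of each value rests on the spread pooled over groups.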

Other observations

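The 3 MYC family genes, which encode growth-promoting transcription factors, had differing values. MYC was at 1.86 and 1.89 TPM in D4 CT4.0 libraries, against 14.2 and 14.8 TPM untreated (log2 -2.43, SE 0.21, limma adjusted p = 8.22e-09), and at 0.844 and 0.598 TPM in D8 CT4.0 libraries, against 19.3 and 19.4 TPM untreated (log2 -3.57). It was at 14.2 and 14.8 TPM in D4 untreated libraries, against 25.1 and 28.2 TPM at D0 (log2 -0.83, not called). MYCN, the family member prominent in neural progenitors, was at 87.2 and 89.3 TPM in D8 CT4.0 libraries, against 36.5 and 44.3 TPM untreated, and rose (log2 1.11). MYCL fell in D4 untreated cells against D0 cells (log2 -1.39). Of the 3 genes, 0 rose and 1 fell under CT4.0 at D4, and 1 rose and 1 fell at D8. The shares of all genes tested that rose and fell were 3.31% and 4.99% at D4 and 3.15% and 12.7% at D8. Counts among 3 genes can hardly be read against them.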
